A study of Mus musculus with 6 samples.

Results

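The genes described here are 7 genes of peptide hormones and neuropeptides outside the main islet hormones, namely Vip, Adm2, Adm, Npy, Pomc, Gast and Cck. They were taken by gene name from a table of 54532 genes and chosen by their FPKM and read values in the bKO and control libraries described below, with earlier results of these libraries known. Their own differences between the groups are therefore given as a description, with no test. RNA was sequenced from whole pancreatic islets, the clusters of hormone cells in the pancreas, of mice aged 7 weeks. 3 libraries came from Ythdc1-betaKO mice (bKO), in which the gene of the m6A reader YTHDC1 is deleted in beta cells, and 3 came from Ythdc1flox/flox mice (control), which carry the floxed alleles. The labels do not name the Cre line, do not say whether the control mice carried it, and give no sex. They call the libraries of each group independent biological replicates.

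Peptide hormones are made as long precursors that are cut at pairs of basic residues by prohormone convertases, trimmed by carboxypeptidases and, for most of these 7 genes, amidated at the end of the active peptide. Vip, a peptide of the glucagon and secretin family, raises cAMP through the receptors VPAC1 and VPAC2 and acts as a transmitter of parasympathetic neurons, which in the pancreas sit in small ganglia and send fibres into islets. Adm2 (intermedin) and Adm (adrenomedullin) belong to the calcitonin gene-related peptide family and act on the receptor encoded by Calcrl together with a Ramp protein. Npy is a transmitter of sympathetic and some parasympathetic nerves. Pomc is the precursor of ACTH, melanocyte-stimulating hormones and beta-endorphin, and Gast and Cck encode gastrin and cholecystokinin, gut hormones with the same active end.

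The bKO islets had Vip and Adm2 mRNA at levels that control islets did not reach, and more Npy and Pomc. The summed level of the 7 genes was 41.1, 48.5 and 34.9 FPKM in the bKO libraries and 6.14, 5.33 and 5.29 FPKM in the control libraries (FPKM count fragments per kilobase of a gene after correction for library size). Vip and Adm2 together made 58.6% to 64.1% of that sum in bKO and 1.68% to 4.50% in control. For scale, the islet hormone gene Sst, somatostatin, stood at 5142 to 5162 FPKM in bKO and 4452 to 4916 FPKM in control. In 5 of the 7 genes every bKO library lay above every control library, which was also true of 14% of all 29515 genes with a read. In the other genes, Gast and Adm, the groups overlapped. These were bulk samples, so more cells of a type and more RNA per cell cannot be told apart, nor do the values show which cells held the transcripts.

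The stretch around the transcription start is shown for Vip and Adm2, the genes that stood highest in bKO, and for Cck, which like Vip had no read in control. Each run is the RefSeq sequence on GRCm38.p6 from 250 bases before to 50 bases after the start, on the gene's own strand. Capitals mark the matches to the motifs searched on both strands, which were the cAMP response element TGACGTCA, its 5-letter core TGACG (held within the full element), the C/EBP-ATF element TGATGNAA and the hypoxia response core ACGTG.
Vip (chr10:5638968-5639267, plus strand): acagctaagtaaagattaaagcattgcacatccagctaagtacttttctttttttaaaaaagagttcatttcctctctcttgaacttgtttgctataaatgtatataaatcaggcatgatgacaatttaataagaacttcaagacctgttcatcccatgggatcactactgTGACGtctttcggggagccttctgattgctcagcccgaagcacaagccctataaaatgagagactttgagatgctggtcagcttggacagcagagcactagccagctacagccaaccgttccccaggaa
Adm2 (chr15:89322470-89322769, plus strand): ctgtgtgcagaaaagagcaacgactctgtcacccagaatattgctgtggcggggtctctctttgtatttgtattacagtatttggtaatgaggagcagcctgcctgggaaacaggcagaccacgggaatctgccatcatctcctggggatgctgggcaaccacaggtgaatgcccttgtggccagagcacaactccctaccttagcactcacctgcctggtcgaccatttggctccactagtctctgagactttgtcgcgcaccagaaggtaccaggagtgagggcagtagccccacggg
Cck (chr9:121495645-121495944, minus strand): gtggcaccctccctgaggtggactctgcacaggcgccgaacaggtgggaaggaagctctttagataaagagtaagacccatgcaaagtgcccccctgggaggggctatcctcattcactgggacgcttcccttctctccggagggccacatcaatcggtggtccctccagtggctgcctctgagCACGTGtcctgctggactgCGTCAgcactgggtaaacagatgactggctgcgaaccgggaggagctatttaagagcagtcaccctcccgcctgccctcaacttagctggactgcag
The Vip stretch held TGACG once, 79 bases before the start. The Cck stretch held it once, on the other strand, 47 bases before the start, and also the hypoxia core on both strands at overlapping places, 65 and 66 bases before the start. The Adm2 stretch held none of the 4 motifs. Of the remaining 4 genes, Pomc had 1 hypoxia core, 58 bases before the start, and Npy, Adm and Gast had no match. Among all 32851 promoter stretches of that length, 20.8% held TGACG, 19.6% the hypoxia core, 3.97% the C/EBP-ATF element and 1.79% the full cAMP element. These matches describe letters and do not show that a factor bound there.

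Vip (ENSMUSG00000019772, chromosome 10, 5639218 to 5647617, plus strand, GRCm38) stood at 12.4, 14.7 and 8.86 FPKM in the bKO libraries and at 0 in each control library. The bKO values rest on 810, 906 and 557 reads recovered from the FPKM, against 0 reads in all 3 control libraries. At 3 reads, the limit that a count of 0 allows, a control library would have stood at 0.0512 to 0.0548 FPKM. Against 3 reads over the control group, Vip was 672-fold higher in bKO, a value that leaves out the counting error of the bKO reads. The lower end of the two-sided exact binomial 95% interval of the ratio was 546. It is smaller mainly because the two-sided interval sets a stricter limit on a count of 0. All 3 bKO libraries were high, and bKO replicate 3 was the lowest of them. By its mean of 12.0 ± 2.9 FPKM (SD, n = 3), Vip ranked 3331st among the 16883 protein-coding genes with a read in bKO. Of all genes with a read, 17 (0.0576%) had no read in control and at least 10 in each bKO library, and Vip was the one with the highest level. The reverse held for 1 gene (0.00339%), the immunoglobulin gene Igha.

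Adm2 (ENSMUSG00000054136, chromosome 15, 89322720 to 89324731, plus strand) stood at 14.0, 14.3 and 11.6 FPKM in bKO and at 0.239, 0.0894 and 0.238 FPKM in control. Reads numbered 348, 337 and 278 in bKO and 5, 2 and 5 in control. The ratio of the pooled rates was 71.2, and its exact binomial 95% interval, for counting error only, ran from 40.6 to 138. The groups lay far apart, and the bKO libraries differed among themselves by 1.24-fold from lowest to highest, against 1.66-fold for Vip. Within bKO the Vip level was 0.888, 1.03 and 0.764 of the Adm2 level in replicates 1, 2 and 3. The close relative Adm (ENSMUSG00000030790, chromosome 7, 110627661 to 110629820), whose peptide acts on the same receptor gene products, stood at 0.161, 0 and 0.0334 FPKM in bKO and at 0.192, 0 and 0.191 FPKM in control. That is 6 reads in bKO and 10 reads in control, a rate ratio of 0.532 (interval 0.159 to 1.62, for counting error only). The libraries of the groups overlapped, and the reads were too few to describe a difference.

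**Figure D1:**
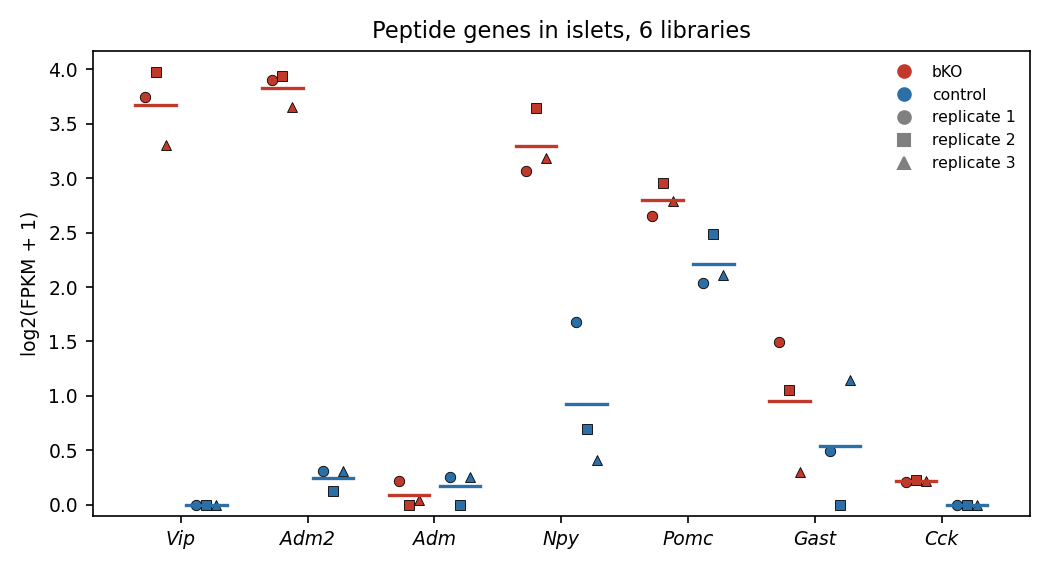
Levels of the 7 peptide genes as log2(FPKM + 1), with 1 point per library, marker shape for the replicate number and a bar at the group mean (n = 3 each). The bKO points of Vip, Adm2, Npy, Pomc and Cck lie above all control points, while those of Adm and Gast overlap them.

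Npy (ENSMUSG00000029819, chromosome 6, 49822710 to 49829507) stood at 7.36, 11.5 and 8.12 FPKM in bKO and at 2.19, 0.615 and 0.327 FPKM in control. Reads numbered 283 in bKO and 29 in control, 20 of these in control replicate 1. The pooled rate ratio was 8.66 (counting interval 5.90 to 13.2), and the groups did not overlap although the control libraries were widely spread. Pomc (ENSMUSG00000020660, chromosome 12, 3954951 to 3960642) was the one member with a steady level in both groups, at 5.29, 6.74 and 5.91 FPKM in bKO and 3.11, 4.62 and 3.32 FPKM in control. Its rate ratio was 1.61 (counting interval 1.37 to 1.89), and the lowest bKO library lay above the highest control library by less than the SD of either group.

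The gastrin and cholecystokinin genes were near the limit of detection. Gast (ENSMUSG00000017165, chromosome 11, 100334407 to 100336996) stood at 1.81, 1.08 and 0.235 FPKM in bKO and at 0.405, 0 and 1.21 FPKM in control. With 27 reads in bKO and 12 in control, the ratio was 2.0 (counting interval 0.978 to 4.33), and the groups overlapped. Cck (ENSMUSG00000032532, chromosome 9, 121489824 to 121495694, minus strand) had 4 reads in each bKO library and 0 in each control library. These are levels of 0.16, 0.169 and 0.166 FPKM in bKO, where 3 reads correspond to 0.120 to 0.127 FPKM. The bKO rate was 3.55 times that of 3 reads over the control group. The lower end of the two-sided exact binomial 95% interval of the ratio was 2.47. That interval sets a stricter limit on a count of 0, and it also counts the error of the 12 bKO reads.

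Ordered by mean level in bKO, the genes ran Adm2 (13.3 FPKM), Vip (12.0), Npy (8.99), Pomc (5.98), Gast (1.04), Cck (0.165) and Adm (0.0647). The library ranges of Adm2 and Vip overlapped, as did those of Vip and Npy and those of Cck and Adm, while the other neighbours were apart. In control the order was Pomc (3.69 FPKM), Npy (1.05), Gast (0.537), Adm2 (0.189) and Adm (0.127), with Vip and Cck at 0. There Pomc lay above all others in each library, and the ranges of neighbours from Npy to Adm overlapped. Adm overlaps the antisense gene Gm28863 on the opposite strand, which was listed at 0 FPKM in all 6 libraries. Whether the counting used strand is not known here, so reads of that pair cannot be told apart. The other 6 genes overlap no gene of the table.

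5 of the 7 genes passed the filter of the fit across all genes, which asks for 0.5 FPKM or more in 3 or more libraries, and Adm and Cck did not. Vip and Adm2 passed through the bKO libraries alone. On the log2(FPKM + 1) scale, which understates changes of low genes, the bKO minus control differences were 3.67 for Vip, 3.58 for Adm2, 2.37 for Npy, 0.58 for Pomc and 0.41 for Gast. In that fit 3192 of 15717 genes (20.3%) passed an adjusted p of 0.05 (limma, Benjamini-Hochberg), 8.96% higher and 11.4% lower in bKO. The median difference of all tested genes was -0.01. The log2 differences of Vip, Adm2 and Npy depend on the constant that is added before taking logs, so the read ratios above are the better measure of size.

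Facts of the libraries bear on all of these values. The libraries held 16863329 to 18240339 reads. Genes with a read numbered 24034 to 24944 in the bKO libraries and 22807 to 23440 in the control libraries, so low genes were found more often in bKO. Ythdc1 stood at 3.81, 3.79 and 3.87 FPKM in bKO and at 5.76, 6.46 and 6.18 FPKM in control, a value over all exons and all islet cells. In the free text of bKO replicates 2 and 3 the knockout is written with a different Ythdc gene, whereas all 3 share the genotype label Ythdc1-betaKO. The defining islet hormones were present throughout, with Ins2 at 82384 to 88582 FPKM in bKO and 128030 to 140984 FPKM in control, and Gcg at 15762 to 18980 FPKM in bKO and 17343 to 21260 FPKM in control. Ins2 was called lower in bKO (log2 difference -0.66, limma adjusted p = 0.046), a call that held in 7 of 15 settings. Ins1 stood at 32802 to 36456 FPKM in bKO and 56219 to 64145 FPKM in control. It was also called lower (log2 difference -0.82, limma adjusted p = 0.0091), in 12 of 15 settings. Ppy, pancreatic polypeptide, the hormone of PP cells, stood at 8855, 8292 and 10843 FPKM in bKO and at 3939, 5226 and 3808 FPKM in control, and was called higher (log2 difference 1.11, limma adjusted p = 0.0044, not called without a filter on low values, adjusted p = 0.15). Pyy, peptide YY, averaged 2977 ± 251 FPKM in bKO and 1635 ± 174 FPKM in control (SD, n = 3 each) and was called higher (log2 difference 0.87, limma adjusted p = 0.0019). The summed levels of 8 Schwann cell, 10 endothelial and 8 mesenchymal markers were 8.16 to 10.6, 185 to 191 and 17.3 to 21.1 FPKM in bKO, against 5.08 to 7.28, 144 to 169 and 14.8 to 15.9 FPKM in control. The sum of 8 macrophage markers was 53.5 to 66.2 FPKM in bKO and 82.6 to 95.0 FPKM in control (two-sided exact permutation p = 0.1 for each of these 4 lists, the smallest that 3 against 3 libraries allow). The sum of 8 acinar markers was 96.5 to 137 FPKM in bKO and 47.3 to 158 FPKM in control (two-sided exact permutation p = 0.6). That of 7 enteroendocrine markers was 29.5 to 31.8 FPKM in bKO and 31.4 to 32.7 FPKM in control (two-sided exact permutation p = 0.2), an order that turned when libraries were scaled by their totals. Vil1, villin, alone made 30.3 FPKM of the mean sum of 30.7 FPKM in bKO and 32.0 FPKM of 32.2 FPKM in control. Among the low members, Cdx2, an intestinal transcription factor, had 31 reads in bKO and 2 in control. Cdh17 had 6 reads in bKO and 0 in control, and Tph1 had 7 reads in bKO and 1 in control. The hormone genes of the list did not share this lean, as Sct had 5 reads in bKO and 4 in control. Gip and Nts had 0 reads in both groups. The part of these cell types in the levels of the peptide genes was not tested.

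Markers of peripheral neurons moved with Vip. Of 20 neuron markers, 13 had every bKO library above every control library and 2 had every one below, Isl1 and Elavl4, against 14% and 13% of all genes with a read. 5 of them had no read in control and were found in each bKO library, a share that was not computed for all genes. They were Slc18a3 and Slc5a7, the vesicular acetylcholine and the choline transporter of cholinergic neurons, Chat, the enzyme that makes acetylcholine, Phox2a, a transcription factor of autonomic neurons, and Nefl, a neurofilament subunit. No control read and at least 10 reads in each bKO library were found for 4 of the 20 markers. The same was true of 0.0576% of all genes with a read, and low genes were found more often in bKO. Slc5a7 stood at 1.12, 1.03 and 1.11 FPKM in bKO, on 342 reads. Slc18a3 stood at 0.949, 1.14 and 0.897 FPKM in bKO. Both genes were thus far below Vip in each bKO library, and no control library held a read of either.

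Prph, peripherin, an intermediate filament of peripheral neurons, stood at 3.41, 4.36 and 2.49 FPKM in bKO and at 0, 0.0290 and 0.0617 FPKM in control. Nos1, the neuronal nitric oxide synthase, stood at 0.579, 0.752 and 0.563 FPKM in bKO and at 0.0724, 0.0208 and 0.0443 FPKM in control. In the fit 7 of the 14 neuron markers that passed the filter were called higher and 0 lower, namely Prph, Slc5a7, Slc18a3, Stmn2, Phox2a, Nos1 and Nefm. The shares over all genes tested were 8.96% higher and 11.4% lower. Slc5a7, Slc18a3, Phox2a, Prph, Nos1 and Stmn2 passed the filter through the bKO libraries alone, so their calls add nothing to the values above. Nefm overlaps Nefl on the opposite strand, and whether the counting used strand is not known here. Dbh, the enzyme that makes noradrenaline in sympathetic neurons, had 0 reads in all 6 libraries, and Slc6a2, the noradrenaline transporter, had 12 reads in bKO and 1 in control.

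The summed level of the 20 neuron markers was 114, 118 and 116 FPKM in bKO and 110, 113 and 113 FPKM in control (two-sided exact permutation p = 0.1). Isl1, Ret, Th and Elavl4 made most of that sum in both groups, and Th, tyrosine hydroxylase, stood at 19.98 ± 1.1 FPKM in bKO and 20.2 ± 0.38 FPKM in control (SD, n = 3 each). Without these 4 genes, a choice made after their values were seen, the sum was 21.4, 25.2 and 20.8 FPKM in bKO and 9.93, 11.2 and 11.3 FPKM in control. Within bKO, Vip, Prph, Slc18a3 and Nos1 were all highest in replicate 2 and lowest in replicate 3. The markers Nefm, Gap43, Th, Hand2 and Chat shared that order, and the remaining markers did not. Phox2a and Stmn2 were highest in replicate 2 and lowest in replicate 1, Slc5a7 was highest in replicate 1 and lowest in replicate 2, and Nefl was highest in replicate 3, where Vip was lowest. The Vip level was 3.63, 3.37 and 3.56 times the Prph level in replicates 1, 2 and 3, 11.1, 14.3 and 7.97 times the Slc5a7 level, and 40.2, 27.3 and 12.3 times the Nefl level. Adm2 also was highest in replicate 2 and lowest in replicate 3, and Npy was highest in replicate 2 and lowest in replicate 1. The part of neurons in the levels of Vip, Npy and the other peptide genes was not tested.

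**Figure D2:**
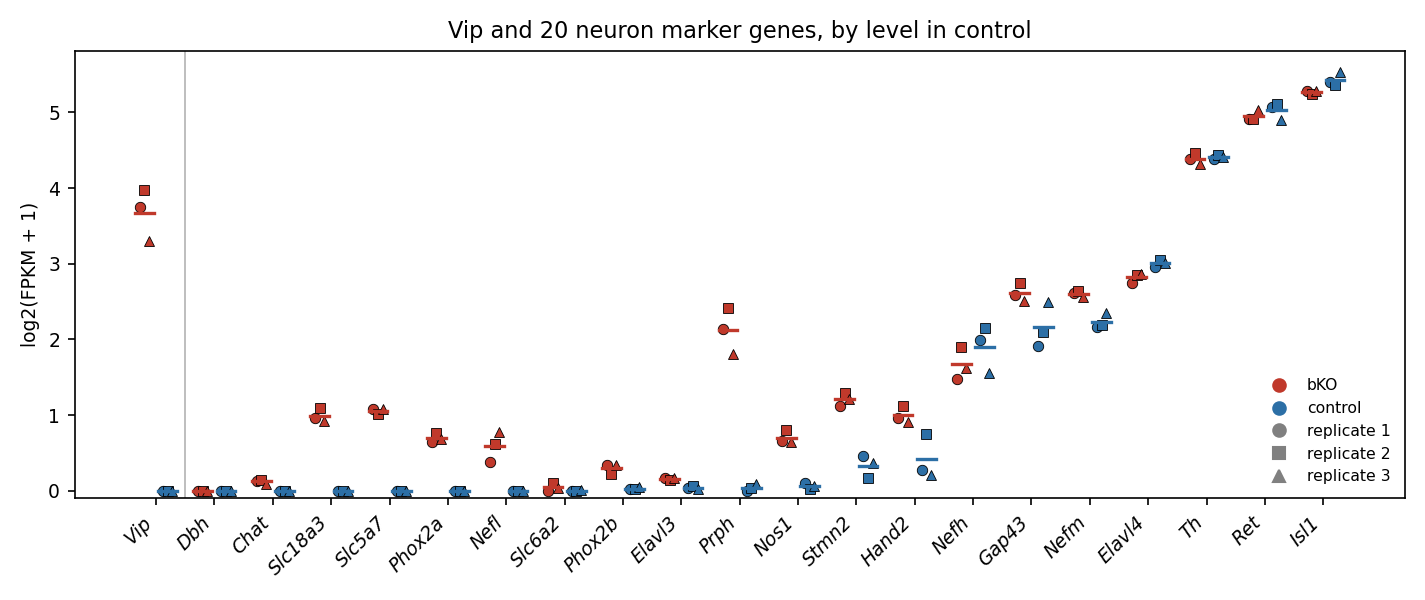
Levels of Vip and of 20 neuron marker genes as log2(FPKM + 1), ordered by their mean in control, with 1 point per library and a bar at the group mean (n = 3 each). Slc18a3, Slc5a7, Phox2a and Nefl lie at 0 in control and above 0 in each bKO library, and Prph is near 0 in control, while the libraries of Th and Ret overlap between the groups.

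Among 61 other genes of peptide hormones and neuropeptides, most had no read or were too low for the fit. 21 had no read in either group. Reads were found in bKO alone for 5 genes (3 to 34 reads) and in control alone for 4 genes (1 to 5 reads). The share of all genes with reads in 1 group alone was not computed, and low genes were found more often in bKO. Of the 12 that passed the filter, 3 were called higher and 0 lower in bKO, beside 8.96% higher and 11.4% lower among all genes tested. Their median difference was 0.21, beside -0.01 for all genes tested. Pdyn, the precursor of dynorphin, stood at 34.9, 32.0 and 28.3 FPKM in bKO and at 21.8, 19.1 and 19.7 FPKM in control, a log2 difference of 0.62 (SE 0.085, limma adjusted p = 0.0039). Npff, the precursor of neuropeptide FF, was at 1.54 ± 0.13 FPKM in bKO and 0.389 ± 0.28 FPKM in control (SD, n = 3 each), and was called higher (log2 difference 0.89, limma adjusted p = 0.010). Only 1 control library of Npff reached 0.5 FPKM, so it met the filter through its high bKO libraries, and its call and its place in the count of 3 add nothing to these values. Ucn3, urocortin 3, was at 385 ± 15 FPKM in bKO and 321 ± 30 FPKM in control, and its call held in 8 of 15 settings (adjusted p 0.00016 to 0.12), and was lost without any 1 of the bKO libraries or control replicate 2 or 3. The abundant genes Agt and Edn3 were at 11.8 ± 1.8 and 7.42 ± 0.71 FPKM in bKO and at 13.6 ± 1.7 and 7.69 ± 0.53 FPKM in control, and neither was called.

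Other low peptide genes, picked here after their values were seen, resembled Vip in having few or no reads in control. Tac1, the precursor of substance P, had 123 reads in bKO and 1 in control, at 0.429, 0.828 and 0.70 FPKM in bKO. Grp, gastrin-releasing peptide, another transmitter of parasympathetic nerves in the pancreas, had 34 reads in bKO and 0 in control. Adcyap1, the precursor of PACAP, a relative of Vip, had 20 reads in bKO and 0 in control. Cartpt had 50 reads in bKO and 6 in control. Edn2, endothelin 2, went the other way, with 6 reads in bKO and 40 in control. None of these 5 genes passed the filter.

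**Figure D3:**
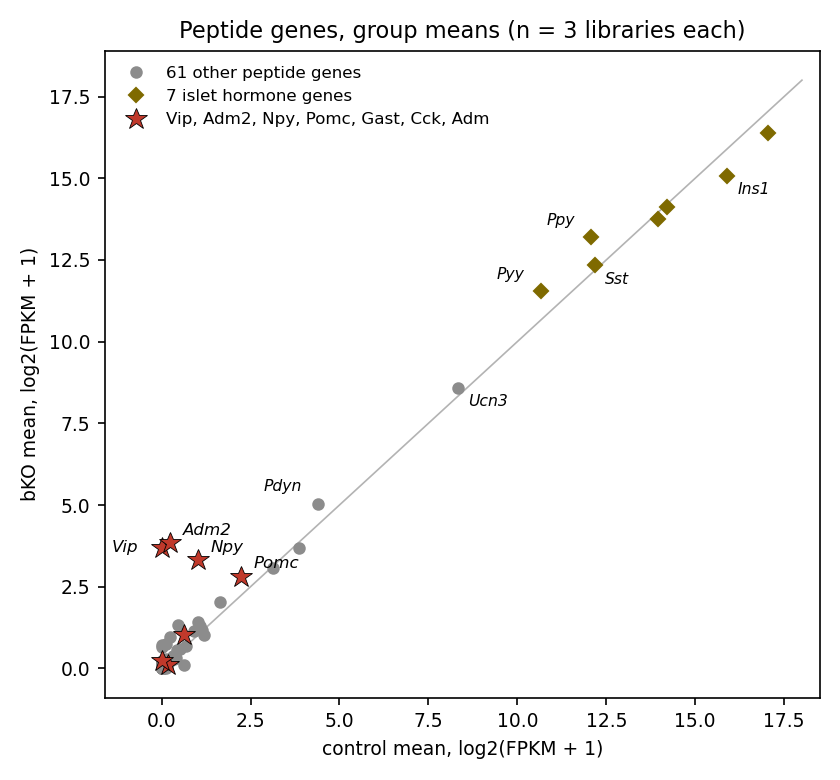
Mean level in bKO (vertical) against mean level in control (horizontal), both as log2(FPKM + 1) over 3 libraries each, for Vip, Adm2, Npy, Pomc, Gast, Cck and Adm (stars), 61 other peptide genes and 7 islet hormone genes, with the line of equal levels. Vip, Adm2 and Npy stand off the line near the left edge, and the islet hormones lie at far higher levels.

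The genes most like Vip and Adm2 across the 6 libraries were sought by the mean absolute difference of log2(FPKM + 1) among 12098 protein-coding genes that passed the filter. Genes named Gm with a number, genes with names ending in Rik, and the 7 peptide genes were left out of that number. Vip and Adm2 differed from each other by 0.21. For Vip the nearest others were Areg (0.53), Aldh1a3 (0.54), Tgm7 (0.56), Sncg (0.64) and Ccdc152 (0.71). For Adm2 they were Aldh1a3 (0.35), Areg (0.50), Sncg (0.60), Ccdc152 (0.67) and Tgm7 (0.75). Areg, the EGF receptor ligand amphiregulin, averaged 6.92 FPKM in bKO and 0.281 FPKM in control. Sncg, gamma-synuclein, a protein of peripheral neurons, stood at 6.11, 6.35 and 6.92 FPKM in bKO and at 0.729, 0.341 and 0.217 FPKM in control. In Aldh1a3 bKO replicate 3 was the highest library at 21.0 FPKM, where Vip and Adm2 had their lowest bKO values.

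Most receptor genes of these peptides were too low for the fit or were not called. Of 21 receptor and partner genes 8 passed the filter, and 1 was called higher and 0 lower in bKO, with a median difference of 0.01. The shares over all genes tested were 8.96% higher and 11.4% lower. Vipr1, which encodes VPAC1, was the most abundant, at 15.4, 15.9 and 15.6 FPKM in bKO and at 18.4, 16.9 and 16.2 FPKM in control (limma adjusted p = 0.15). Calcrl, the receptor of Adm and Adm2, averaged 2.05 ± 0.52 FPKM in bKO and 2.18 ± 0.16 FPKM in control. Its partners Ramp2 and Ramp3 averaged 2.90 ± 0.16 and 6.17 ± 0.51 FPKM in bKO and 3.00 ± 0.52 and 5.89 ± 0.33 FPKM in control (SD, n = 3 each), and neither was called. Ackr3, an atypical receptor that also binds adrenomedullin, stood at 1.90, 2.16 and 2.46 FPKM in bKO and at 1.39, 1.21 and 1.01 FPKM in control, a rise of 0.52 (SE 0.11, limma adjusted p = 0.015). That call ended without bKO replicate 2 or 3 and with the replicate number as a block (adjusted p 0.0016 to 0.061 over 15 settings). Npy5r, Mc2r and Mc3r, receptors of neuropeptide Y and of Pomc peptides, had no read in either group. 5 receptor genes had reads in bKO alone and 0 in control alone. The share of all genes with reads in 1 group alone was not computed, and every bKO library held reads of more genes than any control library. Of those 5, Npy4r and Cckbr had 9 reads each in bKO, Mc1r and Oprm1 had 6 each and Npy2r had 4, and only Mc1r had a read in every bKO library. Adcyap1r1, the PACAP receptor, which binds Vip weakly and was picked after its values were seen, was at 0.648 ± 0.056 FPKM in bKO and 0.276 ± 0.082 FPKM in control and was not called (limma adjusted p = 0.058). It passed the filter through the bKO libraries alone and was called in 4 of 14 settings (adjusted p 0.0011 to 0.15).

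Of 17 enzymes and helpers that process or break down peptides, 15 passed the filter, with 3 called lower and 1 higher in bKO, beside 11.4% lower and 8.96% higher among all genes tested. Nothing particular to the list is read from these counts. Pcsk1, the convertase PC1/3, which cuts the Pomc precursor, stood at 94.5, 96.2 and 96.4 FPKM in bKO and at 149, 137 and 143 FPKM in control. The log2 difference was -0.57 (SE 0.041, limma adjusted p = 0.00040). Ece1, an enzyme that cuts endothelins, fell by 0.50 (SE 0.058, limma adjusted p = 0.0022). Scg5, the chaperone of the convertase PC2, was at 364 ± 9.2 FPKM in bKO and 411 ± 11 FPKM in control, a fall of 0.18 (limma adjusted p = 0.025) that shrank to -0.00 when libraries were scaled by their totals. Its call held in 9 of 15 settings and was also lost with no filter, with the replicate block, and without bKO replicate 1, bKO replicate 2 or control replicate 1 (adjusted p 0.00067 to 0.999 over all 15). Pam, which amidates peptides such as Vip, Npy and gastrin, was at 59.1 ± 2.4 FPKM in bKO and 53.0 ± 1.2 FPKM in control (SD, n = 3 each, limma adjusted p = 0.043), and its call was lost when any of the 6 libraries was left out (adjusted p 0.0025 to 0.11 over 15 settings). Cpe, Pcsk1n and Pcsk2 were not called. The list's median was -0.09, and 0.07 with libraries scaled by their totals.

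**Figure D4:**
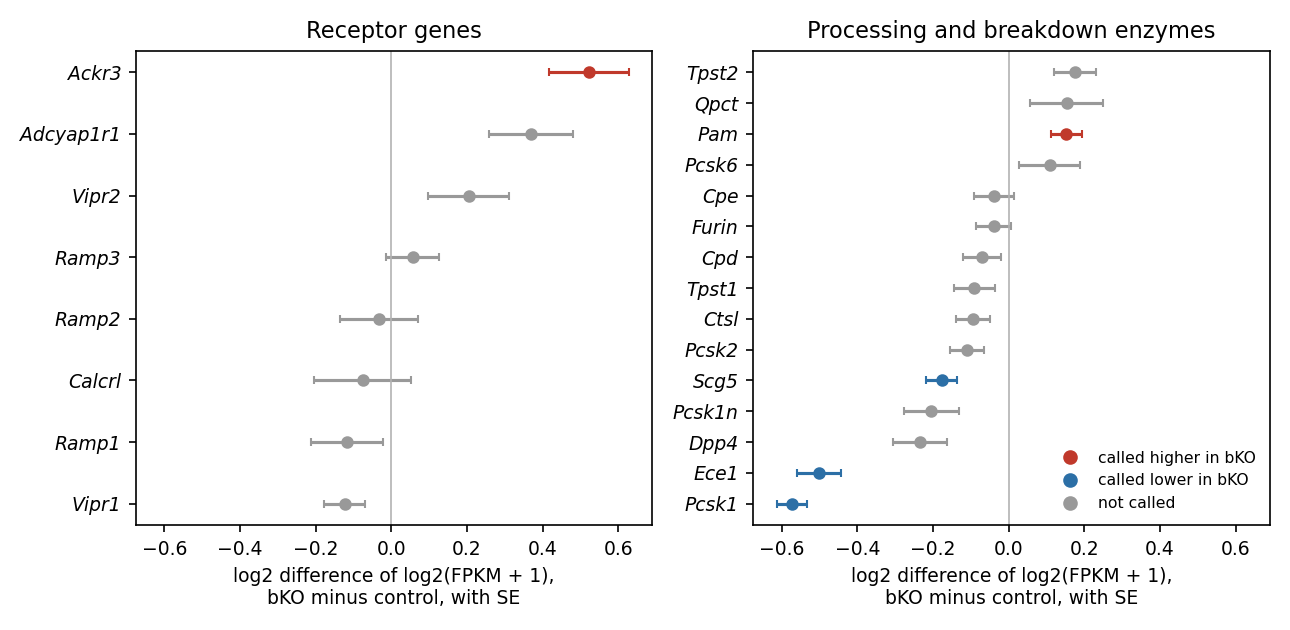
Differences of log2(FPKM + 1), bKO minus control, with the standard error from limma, for the receptor genes (left) and the processing and breakdown enzymes (right) that passed the filter. Points mark genes called higher, lower or not called at an adjusted p of 0.05, and most receptor genes lie near 0, while Pcsk1 and Ece1 lie at -0.57 and -0.50.

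Of 16 genes of the cAMP response 14 passed the filter, with 4 called higher and 1 lower in bKO and a median difference of 0.14. Among all genes tested 8.96% were called higher and 11.4% lower. Pde10a and Pde4d, phosphodiesterases, rose by 0.58 and 0.46 (limma adjusted p = 0.0053 and 0.015), and Nr4a2, a nuclear receptor induced by cAMP, rose by 0.48 (limma adjusted p = 0.0099). Dusp1, a phosphatase, was at 45.6 ± 1.6 FPKM in bKO and 39.7 ± 1.3 FPKM in control (limma adjusted p = 0.021) and was called in 10 of 15 settings. Pde4b fell by 0.49 (limma adjusted p = 0.014), a call that ended without control replicate 1 (adjusted p = 0.053), and that of Pde4d ended without bKO replicate 1 or control replicate 1 and with the replicate block (adjusted p up to 0.060). Nr4a1, Per1 and Atf1 were not called. Hypoxia can raise Adm. Of 18 hypoxia-induced genes 15 passed the filter, with 0 called higher and 1 lower, and a median difference of -0.02. The one called, P4ha1, a collagen prolyl hydroxylase, was at 15.1 ± 0.030 FPKM in bKO and 17.4 ± 0.96 FPKM in control and was called in 7 of 15 settings. Vegfa was at 127 ± 4.0 FPKM in bKO and 129 ± 1.3 FPKM in control (limma adjusted p = 0.68), and was called higher, by 0.15, when libraries were scaled by their totals. Ddit4 was at 91.3 ± 13 FPKM in bKO and 141 ± 33 FPKM in control, with overlapping libraries (limma adjusted p = 0.060). Bnip3 was at 19.4 ± 0.73 FPKM in bKO and 22.0 ± 1.0 FPKM in control (limma adjusted p = 0.052). Neither was called in the main fit, though each was called in 3 of 15 settings. Ndrg1 was not called in the main fit (limma adjusted p = 0.88).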

How the data were processed

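Poly(A)-selected RNA of 6 islet libraries was sequenced in paired ends. Per the labels, the authors aligned reads to GRCm38 with HISAT2 2.0.5 and counted them per gene with featureCounts 1.5.0-p3. DESeq2 1.20.0 appears, without a role, in the submitters' processing notes. How strand and multiply matching reads were handled, and the annotation release, are not given in the sources used here. Values the authors deposited are FPKM per gene. Multiplied by gene length and 1 factor per library, 100% of values above 0 came within 0.01 of a whole number, so reads and depth could be recovered. The factors equal median-of-ratios size factors, from 0.923 to 1.10. Count intervals cover counting error only. 0 columns of other samples were present.

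Log2(FPKM + 1) of all genes that reached 0.5 FPKM in 3 or more libraries was fitted with limma 3.58.1 in R 4.3.3, with a mean-variance trend, bKO against control and no covariate. The main fit was planned for the FPKM as deposited, so no count model served as the main test although reads could be recovered. Recovered reads were used for exact binomial intervals and for voom, an alternative fit. With TMM scaling, voom called 1958 genes higher and 2415 lower, against 1408 and 1784 in the main fit. The fit was tested on simulated reads. Python 3.11.15 with numpy 2.4.6, pandas 2.3.3 and scipy 1.17.1 did the rest. Libraries of a group differed beyond sampling noise (chi-square per degree of freedom 3.87 to 6.05), so none was counted as a repeat. The members and gene lists were chosen with earlier results of these data known. Of the receptor, other peptide, processing, cAMP and hypoxia lists, the called genes and the 4 most abundant genes were named. Other listed genes were named after their values were seen, also where this is not marked. Promoter sequences are from RefSeq (GRCm38.p6), and all 7 genes matched by symbol. The gene positions are those of the table and equal those in GENCODE vM21.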

Additional observations from a re-analysis of the deposited data

How the results depend on the processing

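Depth limits Adm, Gast and Cck, which rest on at most 27 reads a group. Scaling libraries by their read totals moved the median of all tested genes to 0.13, against -0.01 with the authors' scaling, so small differences follow the scaling. With it, 3702 genes were called higher and 737 lower, Vegfa turned to 0.15 (limma adjusted p = 0.036), and calls numbered 2 higher among receptors, 3 higher among processing enzymes, and 4 higher and 0 lower among hypoxia genes. The marker sums then differed by 18.05 FPKM for neurons, 51.4 for endothelium, 5.41 for mesenchyme, -17.1 for macrophages and 2.46 for enteroendocrine genes. The replicate number gave correlations of deviations of -0.052, -0.014 and -0.073 for same-numbered libraries. No shared effect of the number was visible, but 3 libraries a group cannot exclude that they were paired. With the number as a replicate block 925 genes were called higher and 1152 lower. Calls then numbered 0 higher among receptors, 0 higher among processing enzymes, 2 higher among cAMP genes and 0 lower among hypoxia genes.

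On the log2 scale Vip differed by 6.89 and 4.61, and Adm2 by 5.58 and 4.33, with pseudocounts of 0.1 and 0.5. Npy differed by 3.33 and Gast by 1.17 with 0.1. With voom on recovered reads and TMM scaling the differences were 10.36, 6.08, 3.42 and 1.39 for Vip, Adm2, Npy and Gast, and 10.36, 6.08, 3.42 and 1.39 with the authors' scaling, an alternative chosen after seeing the data. Both voom fits called 2 receptors higher, 2 processing enzymes higher and 6 lower, 3 cAMP genes lower, and 1 hypoxia gene higher and 3 lower. With no filter on low values 2 receptors were higher, 1 other peptide gene lower, 0 processing enzymes higher and 0 hypoxia genes lower, and with a floor of 1 FPKM in 3 or more libraries 2 hypoxia genes were lower. Leaving out 1 library gave 852 to 1179 genes higher and 1037 to 1604 lower. It gave 0 to 1 receptors higher, 0 processing enzymes higher, 2 to 5 cAMP genes higher and 0 to 2 lower, and 0 to 2 hypoxia genes lower. It kept Vip at 3.52 to 3.86, Adm2 at 3.52 to 3.67, Npy at 2.12 to 2.75, Pomc at 0.50 to 0.72 and Gast at 0.13 to 0.73. The cause of these changes was not tested.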

Other observations

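The other genes that, like Vip, had no read in any control library and at least 10 reads in each bKO library numbered 16. By mean level in bKO they were led by the pseudogene Gm46344 at 1.17 FPKM, Slc5a7 at 1.08 FPKM and Slc18a3 at 0.996 FPKM. 4 of the 17 genes were in the list of 20 neuron markers. Among those outside it were Htr3a, a subunit of the serotonin receptor channel, at 0.497 FPKM, Colq, the collagen tail of acetylcholinesterase, at 0.203 FPKM, and Cntn2, a contactin of axons, at 0.0695 FPKM. These genes were listed after the values were seen and no test was made.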
